A study of Homo sapiens with 12 samples.

Results

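The genes of the proteasome were examined in prostate cancer cell lines with altered GALNT7. Members were the protein-coding genes whose GENCODE symbol starts with PSMA, PSMB, PSMC, PSMD, PSME, PSMF or PSMG. PSMB8 and PSMB9 were left out, which gave 47 of the 59424 Ensembl genes in each deposited table, and 45 of the 47 had enough reads to be tested. By known role they were grouped into the core (14 genes, the alpha and beta rings), the regulatory cap (17 genes, the base and the lid), the activators (4 genes) and the assembly factors (7 genes). The other 5 were PSMF1, the inducible or tissue-restricted core genes PSMB10, PSMB11 and PSMA8, and PSMC3IP. PSMC3IP is a meiotic recombination factor and not a proteasome subunit, but its symbol meets the rule. The RNA-seq data comprised 12 libraries in 4 groups of 3 biological replicates. CWR22RV1 prostate cancer cells carried a lentiviral control shRNA (shControl) or an shRNA to knock down GALNT7 (GALNT7 KD). DU145 prostate cancer cells carried a lentiviral control open reading frame (OE control) or the GALNT7 open reading frame (GALNT7 OE). All 4 were stable lines made by lentiviral transduction, with no selection of single clones stated for them, and no treatment was given in the labels. Each comparison stayed within 1 cell line, so that cell line and direction of the GALNT7 change cannot be told apart between the comparisons. The question put to the data was which proteasome genes changed when GALNT7, a Golgi enzyme that adds sugars to proteins, was lowered or raised.

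The proteasome is the barrel-shaped protease that degrades proteins tagged with ubiquitin. Its core is a stack of alpha rings, which form the gate, and beta rings, in which PSMB5, PSMB6 and PSMB7 are the catalytic subunits. The cap recognises tagged proteins, removes the ubiquitin and uses a ring of ATPases (PSMC1 to PSMC6) to unfold and feed them into the core. Activators can bind the core in place of the cap, and PSME1 and PSME2, like PSMB10, belong to the interferon-inducible form that makes peptides for antigen presentation. Genes of the constitutive core and cap are known to be regulated together, in part by NFE2L1, a factor that binds the antioxidant response element.

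Recovered depth lay between 18364512 and 24356910 reads per library. Replicates of 1 group differed by more than sampling noise (mean chi-square per gene 9.01 to 24.6), so each library counted as its own replicate. Whether the replicates came from separate transductions is not stated in the sources used here. Differences between the stable lines as such therefore cannot be told apart from those of GALNT7. GALNT7 itself was measured first. Its normalised count was 862, 1042 and 1093 in shControl and 481, 501 and 400 in GALNT7 KD (log2 fold change -1.11, standard error 0.129, limma adjusted p=0.0051). It was 1051, 928 and 913 in the OE control and 1988, 2221 and 2334 in GALNT7 OE (log2 fold change 1.18, standard error 0.0863, limma adjusted p=8.0e-05). Throughout, a normalised count is a gene's reads over the size factor of its library. Fold changes are differences of log2(normalised count + 1), which understate the change of genes with few reads, and the threshold was an adjusted p of 0.05. KLK3, a luminal prostate marker, was listed at 0 in all 6 DU145 libraries. In DU145 cells the summed level of 3 leukocyte markers, nearly all of it CD68, was 2581 to 2758 in the OE control and 985 to 1121 in GALNT7 OE, while CD3E was at 0 and PTPRC at or below 2.10. The 4 fibroblast markers summed to 290 to 422 and 61.9 to 157 in the same groups, with LUM at 0. In CWR22RV1 cells the fibroblast sum, most of it LUM, was 263 to 347 before and 668 to 772 after knockdown, while COL3A1 was at 22.1 to 24.7 and 4.27 to 13.5. In the same groups the leukocyte sum was 104 to 119 and 117 to 174 and the sum of 4 luminal prostate markers 5891 to 6469 and 9891 to 10291. Endothelial markers summed to at most 51.4 in any library. The part of these markers in the results was not tested, and in such bulk samples fewer cells of a kind and less RNA per cell cannot be told apart.

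In GALNT7 KD cells, 8 proteasome genes were higher than in shControl cells and 2 were lower. The changes were small: those that rose lay between 0.24 and 0.30 on the log2 scale. Of the 45 members tested, 17.8% rose, against a background of 5.28% of all 17906 genes tested, and 4.44% fell, against 3.79% (9.06% in either direction). By DESeq2 14 members rose, against 8.32% of all genes. Among the 9074 more abundant genes, with a mean of 300 or above, 7.11% rose. The median log2 fold change was 0.11 over the members and -0.0063 over all genes, and 38 of the 45 members lay above 0, against 49.1% of all genes. The calls were near the threshold: 1 member rose without replicate 1 or 2 of shControl or replicate 1 of GALNT7 KD, 2 without replicate 3 of shControl, 3 without replicate 2 and 6 without replicate 3 of GALNT7 KD.

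In the core, all 14 genes had a log2 fold change above 0 in GALNT7 KD cells, with a median of 0.19, and 4 passed the threshold. In 12 of the 14, every GALNT7 KD library lay above every shControl library. That was the case for 16.9% of all genes and for 20.7% of those with a mean of 300 or above. Among the alpha subunits, which gate the barrel, PSMA2, PSMA3 and PSMA7 passed. PSMA3 was at 1845, 1885 and 1847 in shControl and 2365, 2238 and 2112 in GALNT7 KD (log2 fold change 0.27, standard error 0.0596, limma adjusted p=0.041). The lowest GALNT7 KD library was thus above the highest shControl library. PSMA2 was at 3212, 3359 and 3415 in shControl and 4087, 4146 and 3778 in GALNT7 KD (0.27, limma adjusted p=0.032). PSMA7 was at 3366, 3505 and 3537 against 4144, 3964 and 4275 (0.25, limma adjusted p=0.027). In both genes the groups did not overlap.

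Of the beta subunits only PSMB3, a structural member of the ring, passed in GALNT7 KD cells. It was at 2266, 2246 and 2262 in shControl and 2711, 2700 and 2673 in GALNT7 KD (log2 fold change 0.26, standard error 0.0447, limma adjusted p=0.019), and its libraries were the closest together of the genes that passed. PSMB4, another structural subunit, missed the threshold narrowly (0.18, limma adjusted p=0.051), as did PSMB7, which carries the trypsin-like site (0.23, limma adjusted p=0.053). The chymotrypsin-like subunit PSMB5 was at 3128, 3124 and 3279 in shControl and 3624, 3324 and 3576 in GALNT7 KD. The groups did not overlap, yet the log2 fold change of 0.14 did not pass (95% interval 0.015 to 0.27, limma adjusted p=0.15). The caspase-like subunit PSMB6 had 0.14 (limma adjusted p=0.091).

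Of the 17 cap genes, 4 rose in GALNT7 KD cells and 1 fell, with a median log2 fold change of 0.11. The lowest adjusted p among all members was that of PSMD2, the large scaffold of the base to which ubiquitin and shuttle proteins dock. PSMD2 (ENSG00000175166, chromosome 3 of GRCh38 from 184298709 to 184309054, plus strand) was at 10477, 10450 and 10435 in shControl and 13546, 12741 and 12462 in GALNT7 KD (log2 fold change 0.30, standard error 0.0399, limma adjusted p=0.0081). Among the members, PSMD2 alone passed with each of the 6 libraries left out in turn, and its adjusted p then ranged from 0.013 to 0.041. In limma without a trend, where no member passed, it was 0.068. Among the ATPases, PSMC1 was at 1892, 1808 and 1926 in shControl and 2324, 2195 and 2151 in GALNT7 KD (0.25, limma adjusted p=0.046). PSMC2 was at 3022, 3247 and 3038 against 3676, 3731 and 3545 (0.24, limma adjusted p=0.037). The lid subunit PSMD3 was at 3712, 3496 and 3404 in shControl and 4295, 4113 and 4129 in GALNT7 KD (0.24, limma adjusted p=0.034). The groups of all 3 genes were apart. PSMD1, the other scaffold of the base, had a log2 fold change of 0.0057 (95% interval -0.10 to 0.11), and PSMD14, the deubiquitinase of the lid, had 0.051 (-0.18 to 0.28).

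Both members that fell in GALNT7 KD cells belong to the cap or its assembly, and in both the groups did not overlap, as was the case for 15.6% of all genes. PSMD13, a structural lid subunit (ENSG00000185627, chromosome 11 from 236546 to 252984, plus strand), was at 2131, 2336 and 2264 in shControl and 1785, 1907 and 1888 in GALNT7 KD. Its log2 fold change was -0.27 (standard error 0.0600, limma adjusted p=0.040). No other member of the cap group had a value below 0, although PSMD1 and PSMD8 did so with the 75th percentile scaling. The cap subunits SEM1 and ADRM1, which lie outside the symbol rule, had -0.067 and -0.050 and did not pass. With any 1 of the 6 libraries left out the adjusted p of PSMD13 was 0.065 to 0.13. PSMD9, a chaperone that brings ATPases into the base (ENSG00000110801, chromosome 12 from 121888731 to 121918297, plus strand), was at 1790, 1862 and 1729 in shControl. It was at 1150, 1123 and 1480 in GALNT7 KD (log2 fold change -0.53, standard error 0.113, limma adjusted p=0.035). The third of the GALNT7 KD libraries lay closest to the controls, and without it the value was -0.66 (limma adjusted p=0.0081). Leaving out any other library ended the call (adjusted p of 0.085 to 0.12). The 922 genes tested on chromosome 12 had a median log2 fold change of -0.28, and PSMD9 is the only member there. What the chromosome adds to the change of PSMD9 was not tested.

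No activator passed in GALNT7 KD cells by limma, edgeR or DESeq2, and none had an unadjusted p under 0.05. The largest value was that of PSME2, at 1612, 1986 and 1886 in shControl and 2142, 1948 and 2207 in GALNT7 KD (log2 fold change 0.20, 95% interval -0.020 to 0.43, limma adjusted p=0.23). PSME1, its partner in the ring, was at 1478, 1748 and 1416 against 1516, 1521 and 1585. PSME3, the nuclear activator, was within 0.011 of its control level (95% interval -0.090 to 0.11). The inhibitor-like PSMF1 was at 2487, 2421 and 2445 in shControl and 2428, 2664 and 2377 in GALNT7 KD (0.021, limma adjusted p=0.87). The inducible PSMB10, which replaces PSMB7 in the immune form, was at 252, 293 and 274 in shControl and 298, 283 and 327 in GALNT7 KD (0.15, 95% interval -0.11 to 0.40). In each of these genes the groups overlapped. Of the core assembly chaperones PSMG1 to PSMG4 none passed, and PSMG1 had the largest value, at 1027, 1124 and 1000 against 1135, 1170 and 1076 (0.10, limma adjusted p=0.43). PSMC3IP was at 637, 617 and 573 in shControl and 642, 567 and 570 in GALNT7 KD.

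**Figure D1:**
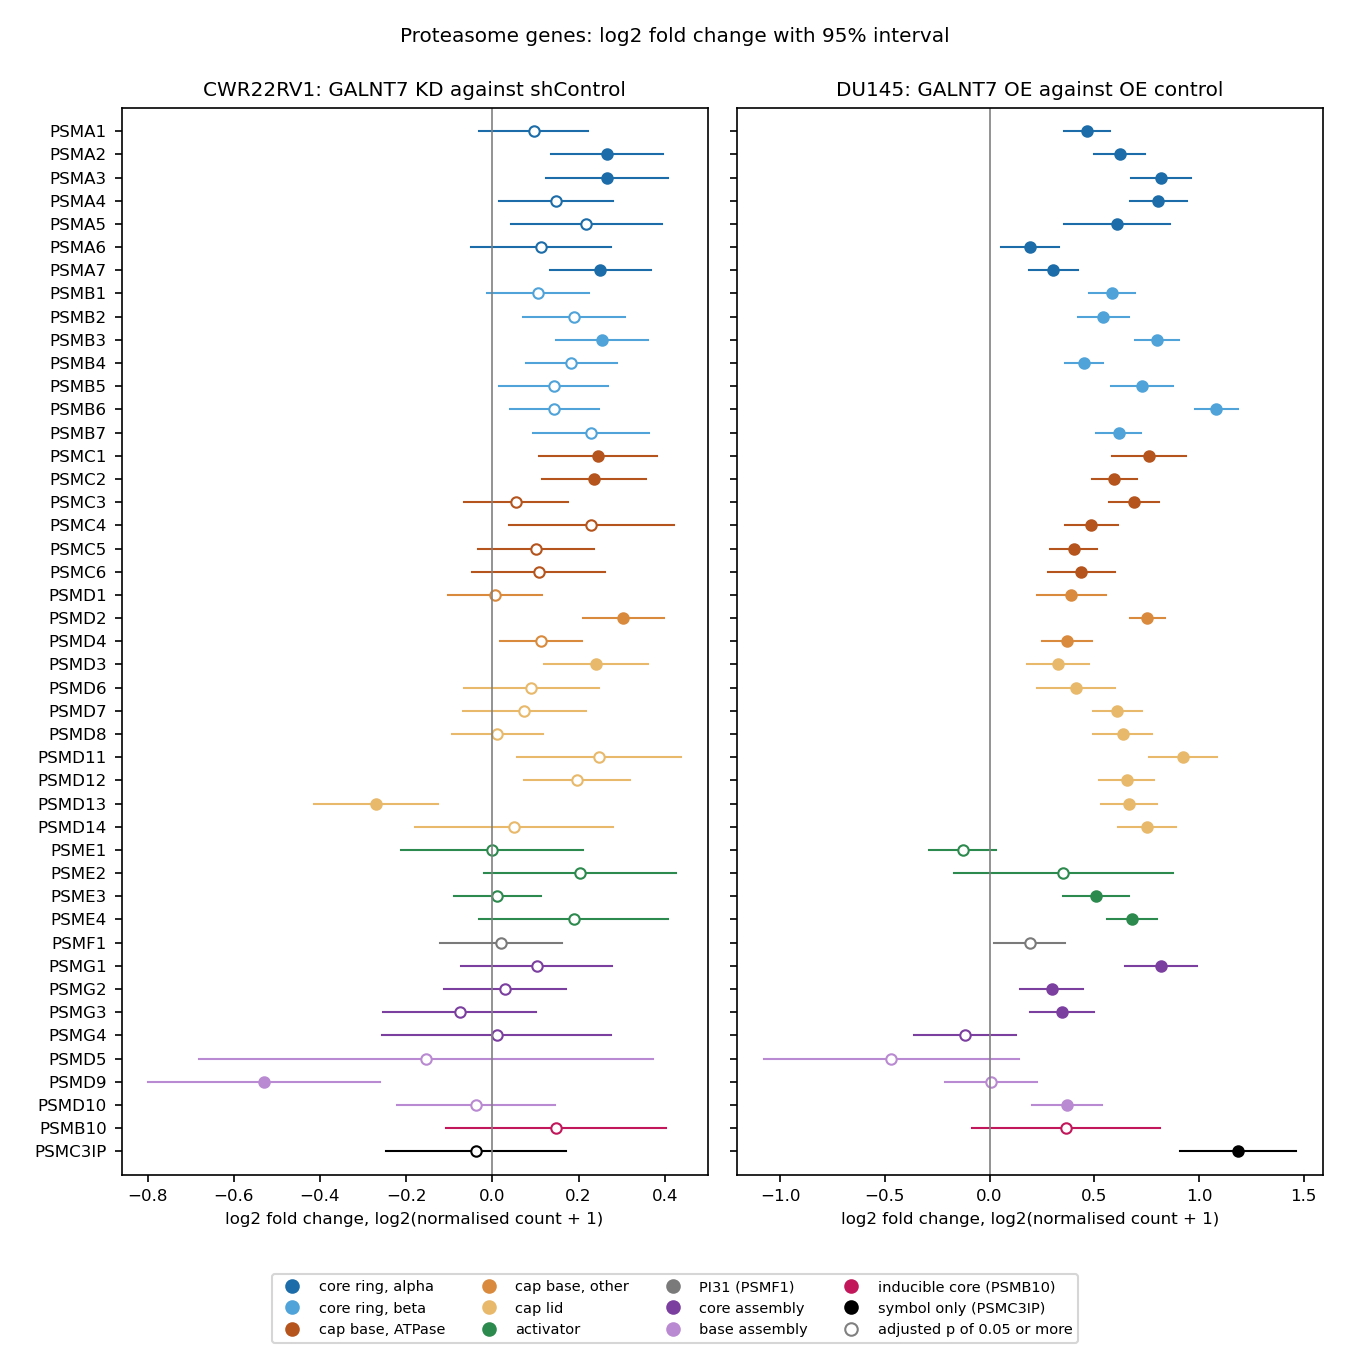
Log2 fold change (x axis, on log2(normalised count + 1)) of each of the 45 tested members (rows, coloured by role) with its 95% interval, on the left for GALNT7 KD against shControl and on the right for GALNT7 OE against the OE control; the x axes differ in range. Filled points passed an adjusted p of 0.05: 10 on the left, of which PSMD9 and PSMD13 are below 0, and 38 on the right, all above 0.

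In GALNT7 OE cells nearly the whole proteasome was higher. Of the 45 members, 38 rose and 0 fell by limma; no member below 0 had an unadjusted p under 0.05, and edgeR and DESeq2 also called 0 lower. The 38 are 84.4% of the members, against a background of 22.9% of the 18705 genes tested that rose and 20.5% that fell (43.5% in either direction). Among the 9701 genes with a mean of 300 or above, 35.9% rose. In all, 42 of the 45 members lay above 0, against 49.2% of all genes. The median log2 fold change of the members was 0.54, a fold of 1.46, against -0.011 over all genes. With libraries scaled to an equal 75th percentile, the split of all calls turned from 4290 higher and 3842 lower to 3380 higher and 4736 lower. The median of all genes was then -0.11 and that of the members 0.44, and 37 members rose, against 18.1% of all genes.

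All 14 core genes rose in GALNT7 OE cells, by 0.19 to 1.08 on the log2 scale, with a median of 0.61. In every one of them the lowest GALNT7 OE library was above the highest control library. That held for 28.2% of all genes and for 41.4% of those with a mean of 300 or above. Of the catalytic subunits, PSMB6 and PSMB5 rose by more than the core median and PSMB7 by about as much. PSMB6, the caspase-like subunit (ENSG00000142507, chromosome 17 from 4796144 to 4798503, plus strand), was at 1629, 1640 and 1660 in the OE control and 3484, 3453 and 3509 in GALNT7 OE. Its level was thus 2.12 times as high, with little spread on either side (log2 fold change 1.08, standard error 0.0427, limma adjusted p=6.9e-06). PSMB5, the chymotrypsin-like subunit and the main target of proteasome inhibitors, was at 1216, 1274 and 1227 in the OE control and 2169, 2063 and 1926 in GALNT7 OE (0.73, standard error 0.0624, limma adjusted p=0.00016). PSMB7, the trypsin-like subunit, had 0.62 (limma adjusted p=8.3e-05). PSMB3 was at 1762, 1777 and 1751 against 3072, 3128 and 3006 (0.80, limma adjusted p=2.5e-05).

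Among the alpha subunits the rise differed in size. PSMA3 was at 1716, 1819 and 1723 in the OE control and 2886, 3230 and 3167 in GALNT7 OE (log2 fold change 0.82, standard error 0.0605, limma adjusted p=8.3e-05). PSMA4 had 0.81. PSMA2 was at 1631, 1658 and 1747 against 2521, 2638 and 2594 (0.62). PSMA7 was at 2292, 2369 and 2288 against 2968, 2860 and 2757 (0.30, limma adjusted p=0.0026). PSMA6 had the smallest change of the core. It was at 7549, 7719 and 7437 in the OE control and 7981, 8775 and 9246 in GALNT7 OE (0.19, standard error 0.0575, limma adjusted p=0.032). The intervals of PSMA3 (0.67 to 0.96) and PSMA6 (0.057 to 0.33) did not overlap. The call of PSMA6 was lost with 5 of the 6 libraries left out in turn (adjusted p up to 0.093) and with the 75th percentile scaling (0.094, limma adjusted p=0.20).

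All 17 cap genes rose as well, by 0.33 to 0.92, and none of their groups overlapped. The lid subunit PSMD11, a scaffold that ties the lid to the base and the core (ENSG00000108671, chromosome 17 from 32444261 to 32483318, plus strand), rose most. It was at 3183, 3366 and 3050 in the OE control and 5575, 6483 and 6165 in GALNT7 OE (log2 fold change 0.92, standard error 0.0680, limma adjusted p=8.2e-05). PSMD2 was at 7888, 8107 and 7711 against 13330, 13088 and 13552 (0.75, standard error 0.0345, limma adjusted p=1.1e-05). PSMD14 had 0.75. PSMD13 was at 1309, 1244 and 1228 in the OE control and 1923, 2039 and 2044 in GALNT7 OE (0.67, limma adjusted p=0.00014). Of the ATPases, PSMC1 was at 1340, 1270 and 1444 against 2305, 2435 and 2137 (0.76, limma adjusted p=0.00027), and PSMC2 was at 1849, 1931 and 1896 against 2888, 2849 and 2844 (0.60). The lid subunit PSMD3 rose least, from 3884, 3347 and 3578 to 4490, 4389 and 4654 (0.33, limma adjusted p=0.0054). The base median was 0.54 for the 6 ATPases and 0.39 for PSMD1, PSMD2 and PSMD4, and the lid median was 0.64.

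**Figure D2:**
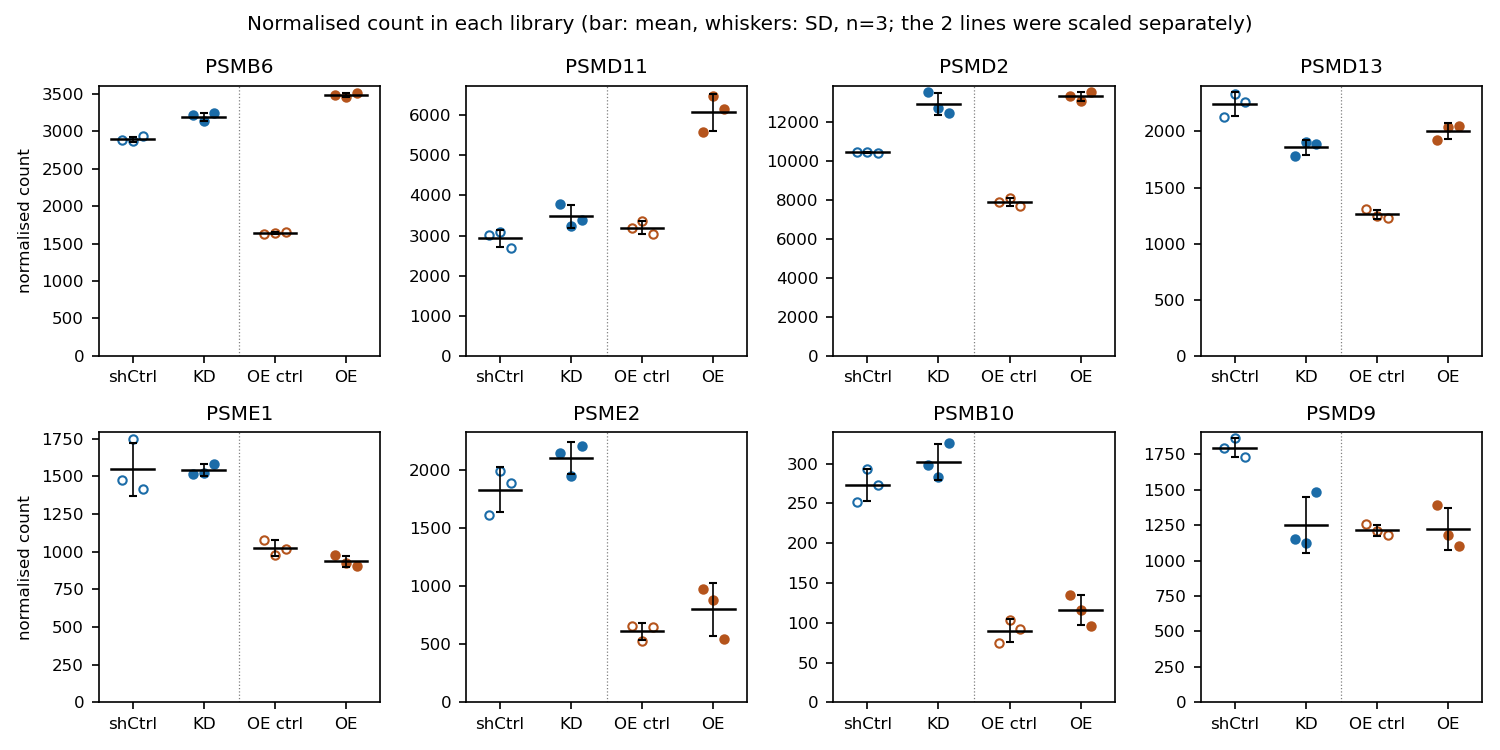
Normalised count (y axis, from 0) of 8 members in each of the 12 libraries, with open points for controls, filled points for GALNT7 KD or GALNT7 OE, bars for the mean and whiskers for the SD (n=3). PSMB6, PSMD11 and PSMD2 stand apart in DU145 cells (right of the dotted line); PSMD13 is lower in GALNT7 KD and higher in GALNT7 OE; PSME2 and PSMB10 overlap between groups in both lines.

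The activators split into 2 that rose and 2 that did not pass. PSME4, a large activator of nuclear proteasomes with a known role in histone turnover, was at 1919, 1942 and 1922 in the OE control and 3047, 3250 and 2990 in GALNT7 OE (log2 fold change 0.68, standard error 0.0502, limma adjusted p=8.2e-05). PSME3 was at 3126, 3144 and 3108 against 4582, 4766 and 4031 (0.51, limma adjusted p=0.0011). Neither gene of the interferon-inducible pair passed. PSME1 (ENSG00000092010, chromosome 14 from 24136158 to 24138967, plus strand) was at 1079, 976 and 1017 in the OE control and 975, 926 and 906 in GALNT7 OE. All 3 GALNT7 OE libraries were below the controls, the first narrowly, as they were for 27.1% of all genes. Its value was -0.13 (95% interval -0.29 to 0.031, limma adjusted p=0.17), so its interval lay below that of each core and cap gene. With the 75th percentile scaling it was called lower (-0.23, limma adjusted p=0.033), and so it was with quantile normalisation (-0.22, limma adjusted p=0.033). PSME2 (ENSG00000100911, chromosome 14 from 24143362 to 24147570, minus strand) was at 654, 530 and 648 in the OE control and 975, 882 and 543 in GALNT7 OE. The third of the GALNT7 OE libraries lay among the controls (0.35, 95% interval -0.17 to 0.88, limma adjusted p=0.24), and without that library the value was 0.61 (limma adjusted p=0.012).

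PSMB10 (ENSG00000205220, chromosome 16 from 67934502 to 67937087, minus strand), the inducible catalytic subunit, was at 74.5, 103 and 91.7 in the OE control and 135, 116 and 96.5 in GALNT7 OE (log2 fold change 0.37, 95% interval -0.082 to 0.81, limma adjusted p=0.16). The groups overlapped, and the interval holds both 0 and the median of the core. With quantile normalisation it passed (0.57, limma adjusted p=0.044). Per kb of exon, PSMB10 made up 3.28% ± 0.507 (SD, n=3) of the sum of PSMB10 and PSMB7, the subunit it replaces, in OE control libraries. The share was 2.78% ± 0.455 (SD, n=3) with GALNT7 overexpressed (two-sided exact permutation test, p=0.3; 3 libraries against 3 allow no p below 0.1). In CWR22RV1 cells the share was 9.32% ± 0.585 (SD, n=3) in shControl and 8.88% ± 1.00 (SD, n=3) in GALNT7 KD (p=0.6, exact test as before). PSMF1 was at 3148, 3113 and 2827 in the OE control and 3467, 3208 and 3712 in GALNT7 OE. Its groups did not overlap and its value of 0.19 missed the threshold (limma adjusted p=0.066; DESeq2 adjusted p=0.049).

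Of the 7 assembly factors 4 rose in GALNT7 OE cells. PSMG1, which with PSMG2 starts the alpha ring, was at 557, 513 and 552 in the OE control and 913, 945 and 1005 in GALNT7 OE (log2 fold change 0.82, standard error 0.0730, limma adjusted p=0.00018). PSMG2 had 0.30 (limma adjusted p=0.0087) and PSMG3 0.34 (limma adjusted p=0.0049). PSMG4, the partner of PSMG3, had -0.12 (95% interval -0.36 to 0.13), below the interval of PSMG3 (0.19 to 0.50). PSMD10, a chaperone of the base also called gankyrin, was at 520, 550 and 540 against 726, 670 and 685 (0.37, limma adjusted p=0.0054). PSMD9 had 0.0059 (95% interval -0.21 to 0.23). PSMD5, a further base chaperone, varied more between replicates than any other member: it was at 3069, 3167 and 2288 in the OE control and 2323, 2663 and 1355 in GALNT7 OE (-0.47, 95% interval -1.08 to 0.14, limma adjusted p=0.19). Outside the particle, PSMC3IP rose from 207, 198 and 171 to 422, 485 and 410 (1.19, standard error 0.117, limma adjusted p=0.00028), the largest change of all 45.

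Library by library, the core median was 0.61 to 0.64 above the control mean in the 3 GALNT7 OE libraries and -0.016 to 0.021 in the controls. The cap median was 0.59 to 0.65, the assembly median 0.25 to 0.32, and the activator median 0.61, 0.57 and 0.10, the low one being the library in which PSME2 was low. In GALNT7 KD libraries the core median was 0.17 to 0.19 and the cap median 0.089 to 0.14. The activator medians there, 0.059 to 0.12, lay within the control range of -0.11 to 0.13, and the assembly medians were -0.095 to 0.023.

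**Figure D3:**
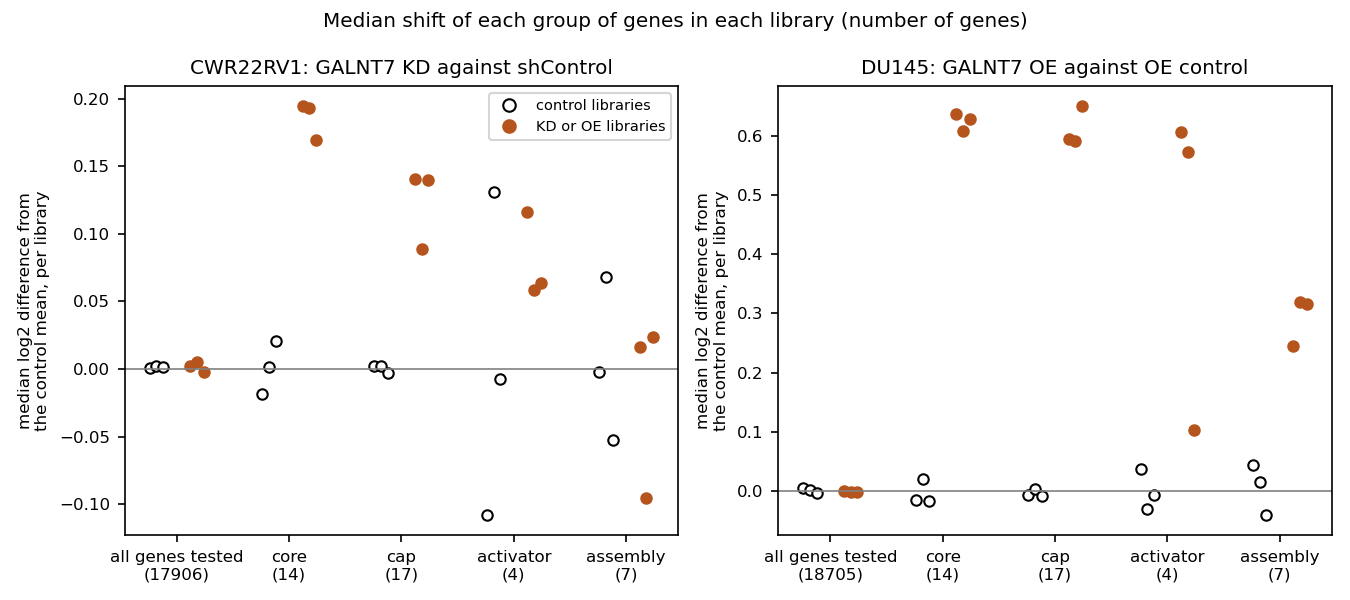
Median over the genes of a group (x axis, number of genes in brackets) of the log2 difference from the control mean (y axis) in each library, with open points for control and filled points for GALNT7 KD or GALNT7 OE libraries. Core and cap stand apart from the controls in every library of both lines, the 4 activators do so only in GALNT7 OE, with 1 library at 0.10, and the median of all genes stays near 0.

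The 8 members that rose in GALNT7 KD cells all rose in GALNT7 OE cells too, although GALNT7 itself was lower in one and higher in the other. They were PSMA2, PSMA3, PSMA7, PSMB3, PSMC1, PSMC2, PSMD2 and PSMD3. Of the 16124 genes tested in both lines, 1.72% rose in both. Of the 857 of them that rose in knockdown, 32.4% also rose in overexpression. All 8 are core or cap genes, and every core and cap gene rose in GALNT7 OE, as did 84.4% of the 45 members. The overlap is thus what the rise of these groups gives and is not particular to the 8. The comparisons share no libraries. PSMD13 moved in opposite directions, -0.27 in GALNT7 KD and 0.67 in GALNT7 OE. It was the only member to do so with both values past the threshold. Of the genes tested in both, 1.3% were lower in GALNT7 KD and higher in GALNT7 OE. Of the 604 of them that were lower in GALNT7 KD, 34.8% rose in GALNT7 OE. PSMD9 was lower in GALNT7 KD only, and the difference between the lines was not tested. Another 29 members passed in GALNT7 OE alone and 6 in neither.

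**Figure D4:**
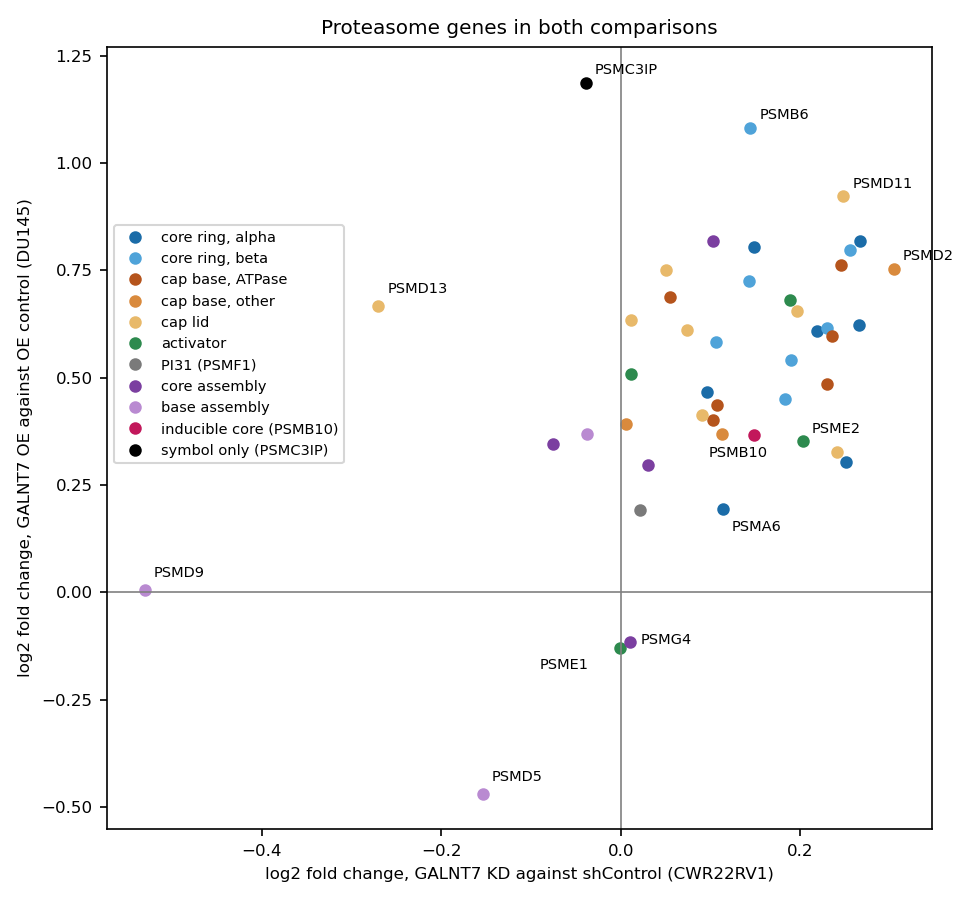
Log2 fold change of the 45 tested members in GALNT7 KD (x axis) and GALNT7 OE (y axis), each point 1 gene coloured by role; the axes differ in range. Most core and cap genes lie above 0 on both axes, PSMD13 lies to the upper left (-0.27 and 0.67), and PSMD9, PSMD5, PSME1 and PSMG4 lie near or below 0 in GALNT7 OE.

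Promoter sequences were then compared, because the members moved together in GALNT7 OE cells with few exceptions. RefSeq windows on GRCh38.p14, from 250 bases before to 50 after the gene start, were at hand for 41 of the 47 members. Some genes have more than 1 RefSeq start, so that these members had 50 windows. Those without one were PSMA7, PSMB1, PSMB6, PSMB7, PSMD4 and PSMG3. The interferon response motif, searched on both strands as GAAA followed by any 2 letters and another GAAA, was in 14.6% of these members and in 4.38% of the 27305 genes with a window. The 6 members that hold it are shown with 10 bases on each side, read along the strand of the motif, and the capitals mark the motif.
PSMB10 (chr16:67936852-67936881, minus strand): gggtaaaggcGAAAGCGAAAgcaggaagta
PSME1 (chr14:24136189-24136218, minus strand): accgcgaaggGAAAGCGAAAgcggtagggc
PSME2 (chr14:24146619-24146648, minus strand): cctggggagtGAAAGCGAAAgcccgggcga
PSMG4 (chr6:3258904-3258933, plus strand): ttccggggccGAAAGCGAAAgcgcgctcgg
PSMA4 (chr15:78540155-78540184, plus strand): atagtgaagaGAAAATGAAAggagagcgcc
PSMB4 (chr1:151399495-151399524, plus strand): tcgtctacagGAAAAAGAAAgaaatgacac
Positions refer to these RefSeq starts, and the windows shown for PSME1, PSME2, PSMB10 and PSMG4 lie inside the GENCODE gene, whose outermost start is further upstream. PSMA4 and PSMB4 rose in GALNT7 OE cells, by 0.81 and 0.45. PSME1, PSME2, PSMB10 and PSMG4 are among the 7 members that did not pass, although PSME2 passed without 1 library and PSMB10 with quantile normalisation. Of the 33 tested members with a window and no such motif, 30 rose. Over all tested genes with a window, 21.7% of those with the motif and 27.8% of those without it rose. PSME1 and PSME2 lie near each other on chromosome 14. In the members' windows no match of 1 motif overlapped a match of another. A match is a description of letters, not of binding.

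The CCAAT box, searched as CCAAT on both strands, was set against the calls likewise. All 19 tested members with the letters rose in GALNT7 OE cells, and of the 20 without them 13 rose, so that each of the 7 that did not pass lacked it. Over all tested genes with a window, 30.2% of those with CCAAT and 25.7% of those without it rose. The letters are shown in capitals, with 10 bases on each side, for 3 of the members that rose most and hold them.
PSMA3 (chr14:58244815-58244839, plus strand): ggcagttcagCCAATgagcgggcct
PSMB3 (chr17:38752676-38752700, plus strand): ggacgtgtgaCCAATagaaagccca
PSMC3IP (chr17:42577769-42577793, minus strand): tccccttcagCCAATcaccgttcga
CCAAT was in 48.8% of the 41 members and in 39.7% of all genes with a window. The core of the antioxidant response element, TGACNNNGC, was in 34.1% of the 41 members and in 16.1% of all genes with a window. Of the 14 tested members with it, 10 rose in GALNT7 OE cells, and of the 25 without it 22 did. Over all tested genes with a window, 26.2% of those with it and 27.9% of those without it rose. The element is shown in capitals for PSMA4, PSMB3 and PSMD12. In PSMA4 it lies before another RefSeq start than the one used for its interferon motif, downstream of the GENCODE start.
PSMA4 (chr15:78540650-78540678, plus strand): gtgggcacgaTGACTCTGCaccgcctcct
PSMB3 (chr17:38752627-38752655, plus strand): gcctccgtttTGACTTTGCaaccaaacta
PSMD12 (chr17:67366724-67366752, minus strand): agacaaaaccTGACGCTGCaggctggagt

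Partners of the proteasome outside the symbol rule were described from a list of 35 genes. In GALNT7 KD cells 2 of the 35 passed, both higher, against 5.28% of all genes, which is close to the background. An unadjusted p under 0.05 was found for 10 of the 35 and for 4675 of all 17906 genes. POMP, which matures the core, was at 1486, 1469 and 1544 in shControl and 1857, 1877 and 1813 in GALNT7 KD (log2 fold change 0.30, standard error 0.0536, limma adjusted p=0.020). UBB, a ubiquitin gene, was at 12495, 13102 and 13227 against 17169, 16874 and 17058 (0.40, limma adjusted p=0.0020). The groups of both genes were far apart.

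In GALNT7 OE cells 18 of the 35 partners rose, against 22.9% of all genes, and 6 fell, against 20.5%. Those that rose were mostly genes that work on the particle or bring substrates to it. SEM1, the small lid subunit without a PSM symbol, had 0.60 (limma adjusted p=0.00077), and ADRM1, a ubiquitin receptor of the cap, had 0.13 and did not pass. POMP rose from 909, 982 and 870 to 1407, 1469 and 1398 (0.63, limma adjusted p=0.00039). The bound deubiquitinases USP14 and UCHL5 had 0.45 and 0.63, whereas ZFAND5, listed with them as a bound cofactor, fell (-0.40, limma adjusted p=0.00041). NGLY1, the enzyme that strips sugar chains and activates NFE2L1, had 0.70 (limma adjusted p=0.00025). VCP, the ATPase that extracts ubiquitin-tagged proteins, had 0.45, and its cofactor UFD1 had 0.60. Of the 10 shuttle and segregase genes 7 rose and the other 3 did not pass.

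Among the 8 transcription factors on the list 4 fell, against 20.5% of all genes, and the other 4 did not pass. NFE2L1 was at 10096, 9779 and 9747 in the OE control and 8211, 8578 and 8512 in GALNT7 OE (log2 fold change -0.23, standard error 0.0352, limma adjusted p=0.0021). Its small partners MAFF and MAFK had -0.72 and -0.98, while MAFG, a further small partner, had 0.0086 and did not pass (limma adjusted p=0.92). IRF1, an activator of interferon-inducible genes, was at 695, 613 and 631 in the OE control and 341, 363 and 362 in GALNT7 OE (-0.86, standard error 0.0829, limma adjusted p=0.00026). Every GALNT7 OE library was below every control library. NLRC5, an inducer of antigen presentation genes, was at 378, 621 and 347 against 387, 135 and 175 and did not pass (-1.05, limma adjusted p=0.077). Of the ubiquitin genes, UBB fell by 0.17 on the log2 scale and RPS27A rose by 0.24.

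**Figure D5:**
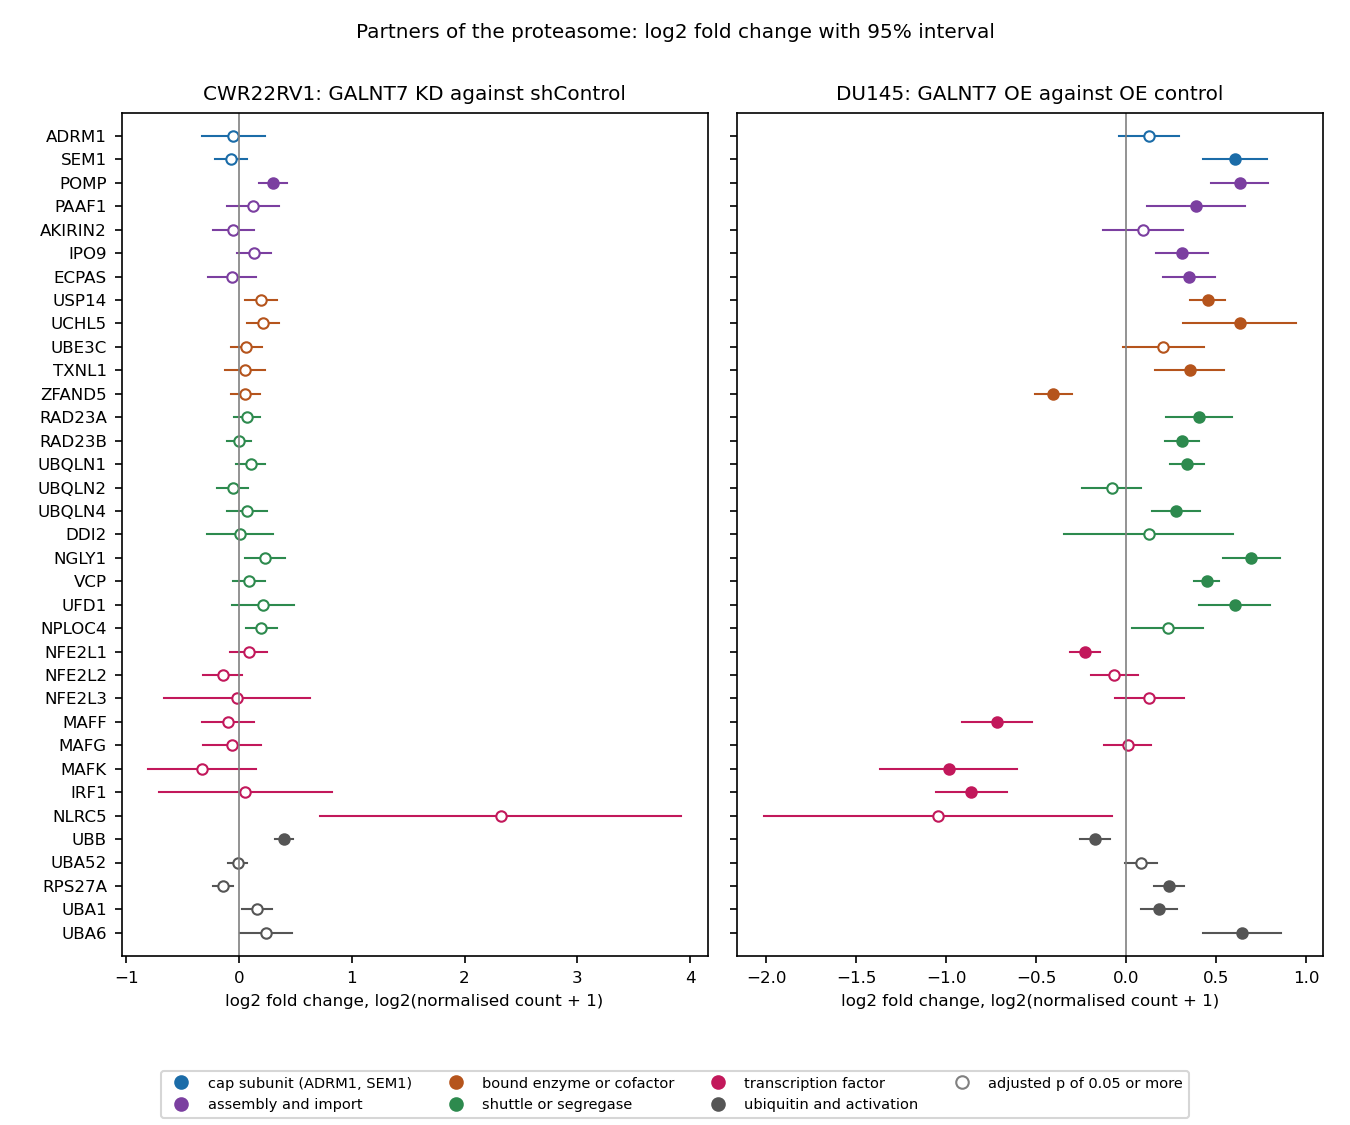
Log2 fold change (x axis, on log2(normalised count + 1)) with its 95% interval of 35 partners of the proteasome (rows, coloured by role), on the left in GALNT7 KD and on the right in GALNT7 OE; filled points passed an adjusted p of 0.05 and the x axes differ in range. On the right, 18 filled points lie above 0 and 6 below, among them 4 of the transcription factors; on the left only POMP and UBB are filled.

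Levels within the particle were compared per kb of the longest transcript. In the OE control PSMD4, a ubiquitin receptor, stood highest at 3816 normalised counts per kb, followed by PSMB4 at 2614 and PSMB7 at 2603, and among tested members PSMB10 was lowest at 73.7. In shControl cells PSMB4 was highest at 4358 and PSMG4 lowest at 87.3. With the length of all exons in place of the longest transcript PSMB4 led in both lines, so that the order depends on the length used. PSMA8, a testis form of an alpha subunit, was at 0 in all 12 libraries, which allows up to 3 reads or a normalised count of up to 3.20 in any of them. PSMB11, the thymus form of the chymotrypsin-like subunit, had 1 read in 3 of the 12 and 0 in the others.

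Some of these counts share sequence with other genes. GENCODE lists 32 pseudogenes with member symbols in the tables. PSMC1P1 and PSMC1P5 took 40.4% of the summed count of PSMC1 and both copies in the OE control and 35.4% in shControl. PSMC1P1 and PSMC1P5 had 0.66 and 0.71 in GALNT7 OE (limma adjusted p=0.0055 and 0.0062), and 0.18 and 0.088 in GALNT7 KD (0.33 and 0.71). Summed with its copies, PSMC1 had 0.72 in GALNT7 OE and 0.21 in GALNT7 KD. PSMA3-AS1, which lies opposite PSMA3, was lower in GALNT7 KD (-0.32, standard error 0.0750, limma adjusted p=0.048), the reverse of PSMA3. The library kit keeps the strand, while the strand setting of the counting is not given in the sources used here. PSMA2, PSMA6, PSMB10 and PSMD9 overlap the gene models AC010132.3, AL121594.1, AC040162.1 and WDR66 on the same strand. In all, 18 members overlap a gene on the opposite strand, among them PSMD13 with SIRT3, PSMA2 with MRPL32, PSME3 with BECN1 and PSMG2 with SPIRE1, and the values of all such members are uncertain to that extent.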

How the data were processed

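RNA-seq of 12 libraries was analysed from the tables the authors deposited, 1 per cell line and scaled separately. The deposited signal holds normalised counts, that is, reads per gene over a library's size factor. The submitters' processing notes name Salmon, DESeq2, R 3.5.3, FastQC and hg38. The annotation release is not given in the sources used here. Whole reads were recovered for 100% of the values (value divided by the smallest value above 0, tolerance 0.001). Names, positions and lengths came from GENCODE 29, which holds 94.4% of the 59424 identifiers. After a log2(x + 1) transform, limma 3.58.1 under R 4.3.3 fitted each line on its own, with a trend in its eBayes step. Genes entered with a mean of 5 or above, and the Benjamini-Hochberg adjustment ran over all of them. Recovered reads were also tested with edgeR 4.0.16 and DESeq2 1.42.0. The tests were tried on simulated data. Members and lists were chosen with earlier results of these data known. Values by library are given for the gene of each role with the largest change, PSMB5, PSMB10 and genes past the threshold in both comparisons; others shown by library were chosen after their values were seen. The alternatives were other pseudocounts, filters, scalings, thresholds and tests, a replicate block and each library left out. Leaving out chromosome 12 and adding PSMC1 copies were chosen after seeing the data. Some genes of the partner and marker lists are not reported here, and list counts, sums and the plot leave them out.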

Additional observations from a re-analysis of the deposited data

How the results depend on the processing

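Counts in GALNT7 KD depended on the settings and those in GALNT7 OE hardly did. The 8 members higher in GALNT7 KD became 14 with DESeq2, 5 with the 75th percentile scaling, 4 with no filter beyond a count above 0, 1 at an adjusted p of 0.01 and 0 in limma without a trend, and the same numbers held for members higher in both comparisons. Leaving out 1 library gave 1 to 6. The 2 lower in GALNT7 KD became 1 with no filter, 0 at 0.01 or without a trend, and 0 to 1 with 1 library left out. Without chromosome 12 PSMD9, which lies there, was not tested, so that setting says nothing of its call. PSMD13 was still called lower. In GALNT7 OE 37 to 39 were higher under every setting tried, and 1 was lower (PSME1) with the 75th percentile scaling or quantile normalisation. Median log2 fold changes moved with the scaling and kept their sign. In GALNT7 KD the 75th percentile gave 0.091 for all members, 0.16 for the core and 0.085 for the cap (0.083 by quantiles). In GALNT7 OE the 75th percentile, equal totals and quantiles gave 0.44, 0.52 and 0.49 for all members, 0.51, 0.59 and 0.51 for the core, and 0.51, 0.59 and 0.51 for the cap, and 0.20 and 0.19 by the first and last for the assembly factors. Leaving out 1 library gave medians of 0.11 to 0.14 for all members, 0.15 to 0.21 for the core and -0.088 to 0.0073 for the assembly factors in GALNT7 KD. It gave 0.53 to 0.58 for all members, 0.59 to 0.61 for the core and 0.58 to 0.63 for the cap in GALNT7 OE. Some members that had not passed changed sign. In GALNT7 KD they were PSMD1 (-0.016 and -0.023 by the 75th percentile and quantiles), PSME3 (-0.011 and -0.0085), PSMF1 (-0.00086 and -0.021), PSMG4 (-0.012 and -0.0028), PSMD8 (-0.010 by the 75th percentile) and PSME1 (0.0026 with equal totals). In GALNT7 OE PSMD9 had -0.093, -0.097 and -0.020 with the 75th percentile, quantiles and equal totals. With 1 library left out, values on both sides of 0 came from PSMD1 (-0.012 to 0.030), PSMD5 (-0.34 to 0.054), PSMD8 (-0.015 to 0.028), PSMD10 (-0.090 to 0.0073), PSMD14 (-0.0085 to 0.13), PSME1 (-0.062 to 0.090), PSME3 (-0.0056 to 0.029), PSMF1 (-0.029 to 0.053) and PSMG4 (-0.083 to 0.062) in GALNT7 KD, and from PSMD9 (-0.088 to 0.078) in GALNT7 OE. Replicate numbers did not pair the samples (correlations of same-numbered libraries -0.011, 0.075 and -0.0057 in CWR22RV1 and 0.043, 0.043 and 0.016 in DU145). In DU145 every library correlated best with its own number, a hint from the data and not the design, whereas in CWR22RV1 control 1 correlated best with GALNT7 KD 3 (0.074). With the replicate number as a block, 1 member was higher and 0 lower in GALNT7 KD, 1 was higher in both, and 1 was lower in GALNT7 OE (PSMD5, limma adjusted p=0.024). The cause of these shifts was not tested. Depth limits what can be said of PSMA8 and PSMB11, at 0 or 1 read.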

Other observations

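PSMD13 lies near the end of the short arm of chromosome 11, and the genes around it were described because it fell in GALNT7 KD cells while no other cap gene passed as lower. Of 14 other genes tested within 250 kb, all 14 had a log2 fold change below 0 in GALNT7 KD (median -0.68) against 50.6% of all genes, and 3 were called lower, against 3.79%. They were BET1L (-0.61, limma adjusted p=0.0075), RIC8A (-0.77, limma adjusted p=0.029) and IFITM3 (-1.56, limma adjusted p=0.0049). Within 2000 kb, 43 of 50 genes were below 0 and 15 were lower. In GALNT7 OE cells 16 of 17 genes within 250 kb were also below 0, against 50.4% of all genes. Of the 17, 8 were lower, against 20.5% of all genes, among them IFITM3 (-2.40, limma adjusted p=3.2e-06), whereas PSMD13 rose by 0.67. SIRT3, which lies head to head with PSMD13, had -0.088 in GALNT7 KD and -0.19 in GALNT7 OE and did not pass in either.

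Around PSMD9, 12 of 13 genes within 250 kb were below 0 in GALNT7 KD (median -0.26), against 50.6% of all genes. Of the 13, 3 were lower, against 3.79% of all genes, among them SETD1B (-0.58, limma adjusted p=0.0034) and BCL7A (-0.39, limma adjusted p=0.017). The 922 genes tested on chromosome 12 had a similar median, -0.28. In GALNT7 OE 7 of 12 genes within 250 kb of PSMD9 were below 0, against 50.4% of all genes. These windows were chosen after the values were seen, and what neighbouring genes share was not tested.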
